A study of Mus musculus with 6 samples.

Results

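The 10 genes described here code for fibrillar collagens and other matrix and matrix-bound proteins of connective tissue: *Col1a1*, *Col1a2*, *Col3a1*, *Col5a2*, *Col12a1*, *Col14a1*, *Dcn*, *Fn1*, *Fstl1* and *Sfrp2*, 10 of the 26903 genes counted. They were selected on earlier results of these same libraries, from their levels over cell classes and their difference between genotypes, so these values are given as a description and carry no test. The study profiled the renal cortex of 9-month-old mice by single-cell RNA sequencing to see what the loss of *Prdm16*, a gene for a transcriptional regulator, does to the aging kidney. There were 3 wild type (WT) mice and 3 *Prdm16* global knockout (KO) mice, 1 library from each. The KO allele lacks exon 2 of *Prdm16*, removed by CRISPR-Cas9 in C57BL/6J mice, and is carried by every cell of the animal from conception on, so the change is not limited to the kidney. The labels name no treatment. Before capture the tissue was digested with collagenases and other enzymes, and passed through strainers.

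In the kidney, fibroblasts and pericytes lay down most of the interstitial matrix, mesangial cells hold the glomerular capillaries together, and podocytes wrap those capillaries from outside. Type I collagen is a triple helix of *Col1a1* and *Col1a2* chains, type III collagen is made of *Col3a1* chains, and type V, with *Col5a2*, takes part in starting the fibril. Types XII (*Col12a1*) and XIV (*Col14a1*) bind to the fibril surface, decorin (*Dcn*) is a small proteoglycan that binds collagen, fibronectin (*Fn1*) is the adhesive glycoprotein of early scars, and *Fstl1* and *Sfrp2* are secreted modulators of BMP and Wnt signalling.

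Cells with 500 to 60000 UMIs (unique molecular identifiers, each 1 captured transcript), 200 to 8000 genes and at most 50% mitochondrial UMIs numbered 28488 after doublet removal, between 3538 and 6276 per library, with 22965576 to 35466580 UMIs per library. They formed 27 clusters, named by markers into 14 classes that resemble known kidney cells, with clusters 9 and 18 left unnamed. Cluster 9, of 364 cells, shared leading genes such as *Slc4a1* and *Aqp6* with cluster 21, which was named intercalated cell-like. The levels of intercalated cell-like cells leave cluster 9 out. Levels are CPM, counts per 1000000, that is the share of a class's UMIs in a library that a gene holds, and each library counts once. Another 38749 barcodes within the UMI and gene bounds were over the mitochondrial limit and were left out, so shares of UMIs refer to retained cells alone. At most 2 cell barcodes were shared between any pair of libraries. All mice were labelled male, but 2 libraries did not match this label: *Xist* was high in WT replicate 2 and in KO replicate 1 (297 and 307 CPM), against at most 0.218 CPM in the other 4, and the reverse held for 4 Y-linked genes. Values from the 4 libraries without *Xist* are therefore given beside each member's difference that passed the threshold, and beside others where the direction turned. *Prdm16* itself stood at 32.1, 26.7 and 27.1 CPM in WT replicates 1 to 3 and at 21.2, 25.3 and 23.6 CPM in KO replicates 1 to 3, a log2 difference of -0.27 ± 0.12 (SE). The KO libraries were all lower, but the reads start from the 3′ end of transcripts, far from exon 2, so this level does not check the deletion.

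The name stromal matrix genes was checked first against the cells that were captured. No cluster was named fibroblast-like. Of 8 fibroblast markers, *Dpt*, *Clec3b*, *Lum* and *Mfap5* had 4, 17, 21 and 27 UMIs over all 28488 cells, and 0, 0, 0 and 1 in the stromal-like class. *Scara5* (165 UMIs) and *Pi16* (1673 UMIs) lay elsewhere, with 0 and 8 UMIs in that class, and *Cygb* had 92 of its 157 UMIs there. The stromal-like class, 819 cells, held 2 main groups, besides 29 cells in mixed subclusters. An *Itga8* group of 521 cells carried the mesangial markers *Itga8* (1359 to 2617 CPM over the 6 libraries) and *Pdgfrb* (235 to 477 CPM), and a *Myh11* group of 269 cells carried the smooth muscle markers *Myh11* (4255 to 5196 CPM) and *Acta2* (7240 to 11023 CPM). *Pdgfra*, shared by fibroblasts and mesangial cells, stood at 266 to 541 CPM in the *Itga8* group and had 0 UMIs in the *Myh11* group. The matrix genes are therefore read here in mesangial-like, mural-like, epithelial, endothelial and macrophage-like cells, with no fibroblast-like class among them. In such a sum of cells, fewer cells of a type and less RNA per cell cannot be told apart.

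The genes are spread over the genome (positions on GRCm38, from GENCODE vM21). *Col3a1* (chr1:45311538-45349706, plus strand) and *Col5a2* (chr1:45374321-45503282, minus strand) are neighbours with 24614 bases between their 3′ ends, and *Fn1* lies further along at chr1:71585520-71653200 on the minus strand. *Col1a1* is at chr11:94936224-94953042 and *Col1a2* at chr6:4504814-4541544, both on the plus strand. *Col12a1* is at chr9:79598991-79718831 on the minus strand, *Col14a1* at chr15:55307750-55520803, *Dcn* at chr10:97479609-97518143, *Fstl1* at chr16:37776873-37836514 and *Sfrp2* at chr3:83766321-83774316, all on the plus strand. A counted gene overlaps *Col14a1*, *Fn1* and *Sfrp2* on the opposite strand (*Gm49257*, *Apol7d* and *Gm26771*), and whether reads were assigned by strand is not given in the sources used here.

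Promoters are shown for 3 members whose UMIs came from different cells. *Col1a2* lay mostly in podocyte-like cells and *Sfrp2* mostly in mesangial-like cells. Of the 78 *Col3a1* UMIs in retained cells, 36 lay in mural-like cells and 34 in cluster 18. RefSeq entries on GRCm38.p6 were matched for 4 of the 10 members. Each sequence runs 5′ to 3′ from 250 bases before the transcript start to 50 bases after it, on the plus strand, and capitals mark 3 common promoter motifs, searched on both strands. A CCAAT box is those 5 letters in either direction. A TATA box is TATAAA in either direction. A GC box is GGGCGG in either direction.
*Col1a2*, chr6:4505368-4505667: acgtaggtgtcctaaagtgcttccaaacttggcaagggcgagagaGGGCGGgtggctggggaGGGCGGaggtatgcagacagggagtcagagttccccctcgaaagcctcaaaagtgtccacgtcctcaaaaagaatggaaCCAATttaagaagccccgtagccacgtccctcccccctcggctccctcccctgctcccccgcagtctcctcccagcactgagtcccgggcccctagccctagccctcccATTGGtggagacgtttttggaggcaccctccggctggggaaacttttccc
*Col3a1*, chr1:45311288-45311587: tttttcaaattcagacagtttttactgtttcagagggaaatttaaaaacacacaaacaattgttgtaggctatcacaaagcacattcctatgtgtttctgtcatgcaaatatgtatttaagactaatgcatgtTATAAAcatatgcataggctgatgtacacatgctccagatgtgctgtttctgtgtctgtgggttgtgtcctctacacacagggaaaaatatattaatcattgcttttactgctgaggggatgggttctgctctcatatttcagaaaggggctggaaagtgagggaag
*Sfrp2*, chr3:83766071-83766370: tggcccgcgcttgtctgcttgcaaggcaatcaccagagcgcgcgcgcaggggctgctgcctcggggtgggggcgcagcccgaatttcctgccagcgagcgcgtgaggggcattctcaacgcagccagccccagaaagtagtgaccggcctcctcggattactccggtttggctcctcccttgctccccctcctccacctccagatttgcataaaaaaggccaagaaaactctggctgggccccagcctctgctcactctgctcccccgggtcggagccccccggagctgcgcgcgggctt
The *Col1a2* window held 2 CCAAT boxes and 2 GC boxes, 1 of the CCAAT boxes in each direction. The *Col3a1* window held 1 TATA box, and the *Sfrp2* window held none of these letters. Of 32851 promoters of the same length, 37.4% held a CCAAT box, 13.6% a TATA box and 35.7% a GC box, and a match is not evidence of a working site.

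The 2 chains of type I collagen were spread differently over the cell classes, with few UMIs for 1 of them. *Col1a2* had 22979 UMIs in retained cells, and *Col1a1*, described next, 188. Of the 188, 62 lay in a single cell of cluster 18, which also held 82 *Col1a2* UMIs. Podocyte-like cells carried 95.5% of the *Col1a2* UMIs, between 89.0% and 97.5% in each library, and 14.4% of those of *Col1a1*. In podocyte-like cells *Col1a2* stood at 1094, 884 and 845 CPM in WT replicates 1 to 3 and at 629, 904 and 801 CPM in KO replicates 1 to 3. The groups overlapped, with KO replicate 1 lowest, and the log2 difference was -0.29 ± 0.15. Cells with a *Col1a2* UMI made up 22.7% to 38.3% of podocyte-like cells once each cell was thinned to 500 UMIs (56.2% to 82.1% unthinned), against 0% to 0.729% of thinned LOH-like cells (loop of Henle), whose median depth of 7847 UMIs was above the 3591 of podocyte-like cells. All 3 podocyte-like clusters carried it, at 806, 960 and 705 CPM on average. Next came cluster 18, at 280 ± 93.0 CPM (SD over 6 libraries), and the stromal-like class, at 97.9 ± 24.7 CPM, and these 3 ranges over libraries did not overlap each other. Every other class averaged at most 3.36 CPM.

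*Col1a1* and *Col3a1* were low everywhere, and part of the signal came from very few cells. Both were found in the *Myh11* group. *Col3a1* stood there at 42.2, 57.3 and 76.9 CPM in WT mice, and 34.4, 18.6 and 40.4 CPM in KO, with 36 UMIs behind all 6 values. The KO values were all below the WT values. They rest on 6, 8 and 9 UMIs in WT mice, and 9, 2 and 2 in KO, too few to make this order firm. *Col1a1* stood there at 28.2, 43.0 and 42.7 CPM in WT mice, and 57.4, 37.2 and 0 CPM in KO, from 34 UMIs. At this depth KO replicate 3 could hide up to 60.7 CPM (3 counts), so no difference in *Col1a1* was detectable. In the larger *Itga8* group *Col1a1* had 0 UMIs, which allows up to 1.87 CPM over the 6 libraries together, and *Col3a1* had 3. Such limits cover counting error only.

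Outside the mural-like cells the *Col1a1*, *Col3a1* and *Dcn* signal of cluster 18 came mostly from 1 mouse. Cluster 18 was led by *Osr2*, *Tnc* and *Dkk3* and held 30 to 80 cells per library. Its *Dcn* level was 14.98, 5.48 and 745 CPM in WT mice, and 0, 3.28 and 59.3 CPM in KO, and its *Col1a1* level 4.99, 19.2 and 318 CPM in WT mice, and 0, 0 and 12.7 CPM in KO. WT replicate 3 stood far above the other 5 libraries for both. In that library 3 of 43 cells held all 84 *Col1a1* UMIs, and a single cell held 62 of them together with 173 *Dcn*, 82 *Col1a2*, 23 *Col3a1*, 23 *Col14a1*, 13 *Lum* and 12 *Mfap5* UMIs, among 8746 UMIs in all. This cell alone had 12 of the 27 *Mfap5* UMIs of all retained cells. The cluster averages for these genes rest mostly on that cell.

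*Dcn* had a second, steadier place. Intercalated cell-like (IC) cells carried 76.5% of its 1321 UMIs, between 37.7% (WT replicate 3) and 97.1% (KO replicate 1) in each library. The level there was 43.1, 29.7 and 28.6 CPM in WT mice, and 44.8, 26.8 and 38.1 CPM in KO. The groups overlapped and the log2 difference was 0.16 ± 0.20. Within IC cells it was carried by cluster 22, led by *Slc26a4*, the anion exchanger of type B cells, at 40.0 to 73.6 CPM in each library, while cluster 21, led by *Slc4a1*, the exchanger of type A cells, had 0 to 2.94 CPM, so the ranges did not overlap. After thinning, 0.746% to 2.91% of IC cells held a *Dcn* UMI (9.74% to 19.7% unthinned), against 0% in LOH-like cells of higher depth.

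**Figure D1:**
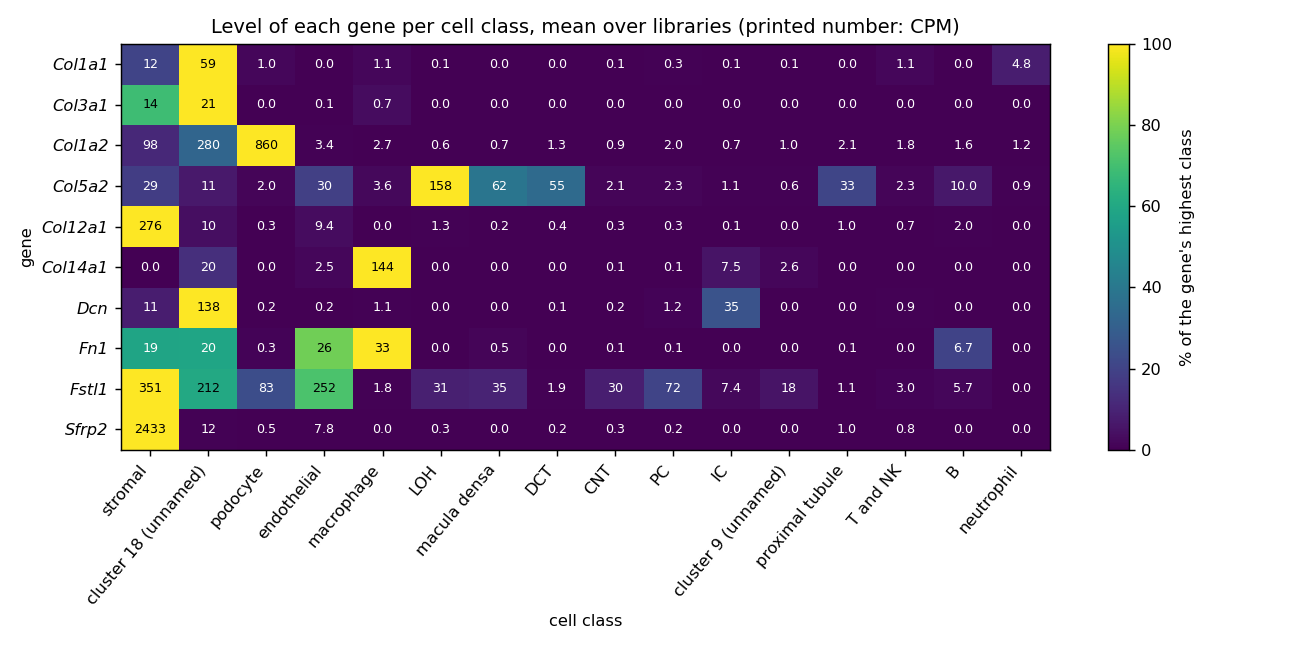
Level of each of the 10 genes (rows) in the 16 classes (columns), as the mean CPM over libraries, printed in each cell; the neutrophil column averages the 5 libraries that had such cells. The colour gives each level as a percentage of the highest class of the same gene, so rows are not comparable in colour for amount: *Sfrp2* and *Col12a1* peak in stromal-like cells, *Col1a2* in podocyte-like cells at 860 CPM, *Col5a2* in LOH-like cells at 158 CPM and *Col14a1* in macrophage-like cells at 144 CPM.

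The other members each had an order of their own over the classes. *Sfrp2* (98.3% of its UMIs) and *Col12a1* (77.7%) lay mainly in stromal-like cells, at 2433 ± 1481 and 276 ± 192 CPM over the 6 libraries, and no other class reached either range. *Col14a1* was carried by macrophage-like cells (61.2% of its UMIs) and IC cells (27.0%), and had 0 UMIs in the stromal-like class, which allows up to 1.17 CPM. In cluster 18, the next class, *Col14a1* rested on WT replicate 3, at 102 CPM. *Fn1*, in 459 UMIs, averaged 33.2 CPM in macrophage-like, 26.04 in endothelial-like, 19.5 in cluster 18 and 19.4 in stromal-like cells, and each of these ranges overlapped the next. *Fstl1* was widespread: 351 ± 70.4 CPM in stromal-like, 252 ± 45.5 in endothelial-like and 212 ± 52.3 CPM in cluster 18, ranges that overlapped from one to the next, followed with a gap by podocyte-like cells at 83.5 ± 22.6 CPM.

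*Col5a2* was mostly an epithelial gene here. Of its 8402 UMIs in retained cells, LOH-like cells carried 73.0% and distal convoluted tubule-like (DCT) cells 17.1%. In each library 36.8% to 45.6% of its UMIs in all barcodes lay over the mitochondrial limit, outside these shares. LOH-like cells stood at 139, 279 and 135 CPM in WT mice, and 114, 141 and 142 CPM in KO. WT replicate 2 was highest and the groups overlapped (log2 difference -0.48 ± 0.22, and 0.06 in the 4 libraries without *Xist*). Within these cells the level was 348 to 659 CPM in cluster 4, with *Cldn16* among its leading genes, the paracellular magnesium channel, and 31.3 to 171 CPM in cluster 3, ranges that did not overlap, while cluster 17, of low depth, lay between at 93.5 to 289 CPM. Macula densa-like cells, the salt sensors of the same segment, stood at 46.1 to 68.9 CPM. One endothelial-like cluster of 205 cells, cluster 12, led by *Mgp*, *Fbln5* and *Eln*, stood apart from the other 3: it held *Col5a2* at 187 to 283 CPM against at most 34.1 CPM, *Fstl1* at 464 to 1140 CPM against at most 364 CPM, and *Fn1* at 130.5 to 220 CPM against at most 42.3 CPM. *Mgp*, *Fbln5* and *Eln* code for proteins of elastic vessel walls.

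By the Pearson correlation of log2(CPM + 1) over the 14 classes where each library had 10 cells or more, which share libraries and depth, the genes most like each member were these, out of 10191 with at least 20 CPM in a class. *Sfrp2* was most like *Rgs5* and *Lhfp* (r = 0.992 and 0.990), *Col12a1* like *Col8a1* and *Acta2* (0.987 and 0.985), and these 2 members were as like each other (0.985). *Col1a2* was most like *Mmp23* and *Kirrel* (0.994 and 0.989), *Col3a1* like *Tnc* and *Lama2* (0.992 and 0.981), and *Col1a1* like *Loxl1* and *Tnc* (0.973 and 0.969). *Fn1* was most like *Itga9* and *Sdc3* (0.973 and 0.955), *Fstl1* like *Eml1* and *Ano6* (0.937 and 0.922), *Col14a1* like *Gm14636* and *Cxcl14* (0.881 and 0.877), *Col5a2* like *Ldlrad3* and *Fgf1* (0.873 and 0.868) and *Dcn* like *Tph1* and *Dkk3* (0.839 and 0.815). The smallest of these, *Dkk3* for *Dcn*, is among the leading genes of cluster 18. The cluster 18 means of *Col1a1*, *Col3a1* and *Dcn* rest mostly on 1 cell of WT replicate 3. Their correlations include that cell and were not computed without it.

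The comparison of KO with WT was made on counts summed per library and class, in the 12 classes where each library had 20 cells or more. Of the 10 members, 8 passed the filter on low counts in at least 1 of these classes. *Col1a1* and *Col3a1* passed in none, *Dcn* only in IC cells and *Sfrp2* only in stromal-like cells. Of 25 member and class pairs fitted, 7 passed an adjusted p of 0.05 over all genes of their class, 4 higher and 3 lower in KO, against 1.57% of all 96424 gene and class pairs. The CPM values of the 2 groups did not overlap in 11 of the 25 pairs, 5 higher and 6 lower in KO, against 16.5% of all pairs. Since the members were chosen with this contrast known, nothing is read from these counts. Whether a value passed is a statement on the fit over all genes and is no test of the members. Over all cells summed, 0 of the 10 members passed with edgeR (3 had an unadjusted p under 0.05, and DESeq2 called 3), against 0.593% of genes. The 3 were *Col12a1* (log2 difference 1.06 ± 0.16), *Col14a1* (1.52 ± 0.33) and *Sfrp2* (-1.89 ± 0.31), and in each the groups did not overlap.

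**Figure D2:**
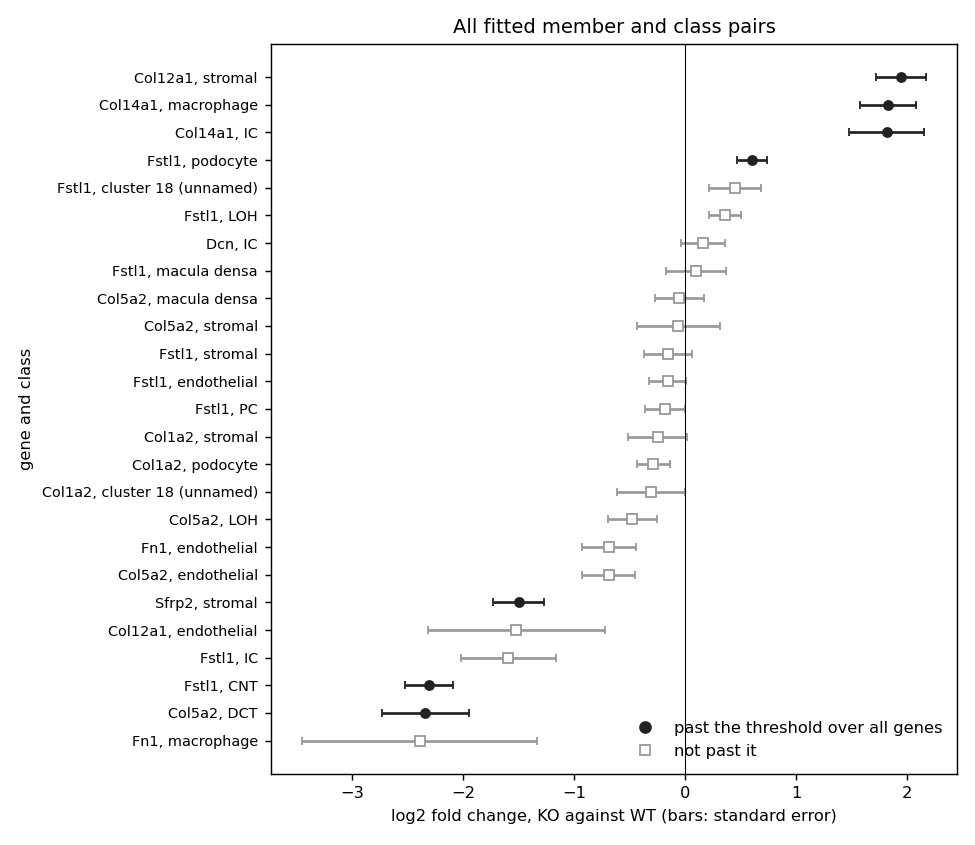
Log2 fold change of KO against WT for the 25 member and class pairs fitted, with standard errors as bars; filled circles passed the threshold over all genes of the class and open squares did not. The 7 filled points run from *Col5a2* in DCT cells at -2.34 to *Col12a1* in stromal-like cells at 1.95, and *Fstl1* has filled points on both sides of 0.

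*Col12a1*, whose product links fibrils to their surroundings, was higher in KO stromal-like cells. It stood at 103, 122 and 120 CPM in WT mice, and at 323, 431 and 559 CPM in KO, from 594 UMIs. Every KO library was above every WT library, and the log2 difference was 1.95 ± 0.23 (2.18 ± 0.26 in the 4 libraries without *Xist*). In the class, 0.0696% of genes passed the threshold, 4 of 5744. For the class as a whole the call held under each of the 16 alternatives, with a log2 difference between 1.75 and 2.18.

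The rise sat in the *Itga8* group. There *Col12a1* stood at 133, 145 and 181 CPM in WT mice, and at 651, 682 and 749 CPM in KO, a log2 difference of 2.27 ± 0.21, where 0.52% of genes passed. In the *Myh11* group it stood at 35.2, 35.8 and 51.3 CPM in WT mice, and 57.4, 55.9 and 20.2 CPM in KO, which overlapped, with 38 UMIs in all. After thinning, 4.21% to 7.94% of *Itga8* group cells in WT and 14.7% to 31.9% in KO held a UMI (23.2% to 33.3% and 60.3% to 71.4% unthinned), against 0% to 0.513% of thinned LOH-like cells. The 16 alternatives were not run within the *Itga8* group.

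*Sfrp2*, a secreted Wnt-binding protein, moved the other way in the same cells. In stromal-like cells it stood at 3020, 4889 and 2948 CPM in WT mice, and at 1026, 1228 and 1486 CPM in KO, from 7099 UMIs. All KO libraries were below all WT libraries, with WT replicate 2 highest, and the log2 difference was -1.50 ± 0.23. In the *Itga8* group it stood at 4258, 6110 and 4632 CPM in WT mice, and 1949, 1761 and 1918 CPM in KO (-1.35 ± 0.18), and in the *Myh11* group at 148, 222 and 171 CPM in WT mice, and 249, 335 and 182 CPM in KO, which overlapped. After thinning, 74.6% to 82.9% of *Itga8* group cells in WT and 45.7% to 57.1% in KO held a UMI (95.2% to 95.8% and 81.9% to 89.8% unthinned), against at most 0.199% of thinned podocyte-like cells. In the 4 libraries without *Xist* the difference was -1.10 ± 0.26 and no longer passed, and it did not pass without KO replicate 1 (-1.37), 2 (-1.51) or 3 (-1.63), nor with classes taken from marker scores (-1.64).

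Other features of the stromal-like class also differed between libraries. WT replicate 2 gave 114 of the 117 cells of a subcluster within the *Itga8* group led by the interferon genes *Irf7*, *Isg15* and *Ifit3*, and *Isg15*, *Irf7*, *Ifit1* and *Ifit3* together stood at 2220 CPM in its stromal-like cells against 60.6 to 275 CPM in the other 5 libraries. Without that library *Col12a1* differed by 1.98 and *Sfrp2* by -1.23, and both passed. The *Myh11* group made up 20% to 33.8% of stromal-like cells in 5 libraries and 49.5% in KO replicate 1. *Ren1*, the renin gene, stood at 66.5 to 122 CPM in WT and at 394 to 3190 CPM in KO stromal-like cells, highest in KO replicate 1 (log2 difference 4.01 ± 0.63, edgeR adjusted p = 0.0189). The part of these in the differences was not tested. Within the *Itga8* group, where the *Myh11* cells are left out, the 10 mesangial and mural markers summed to 3586 to 4457 CPM in WT mice, and 3607 to 4338 CPM in KO, but single markers moved both ways. There *Itga8* stood at 1678 to 2617 CPM in WT and 1359 to 1510 CPM in KO (log2 difference -0.40 ± 0.18, edgeR adjusted p = 0.517) and *Pdgfrb* at 386 to 477 and 235 to 342 CPM (-0.49 ± 0.21, edgeR adjusted p = 0.491), below WT in every KO library, as *Sfrp2* was. *Notch3* stood at 122 to 175 and 210 to 281 CPM (0.73 ± 0.23, edgeR adjusted p = 0.257), above WT in every KO library. Of the markers fitted there, *Rgs5* differed most, at 209 to 577 and 548 to 1082 CPM (1.33 ± 0.31, edgeR adjusted p = 0.0878). Its groups overlapped. *Ren1*, not fitted, was above WT in every KO library, at 4.89 to 6.04 and 14.1 to 52.5 CPM, from 24 UMIs. Their part was not tested either. Stromal-like cells were 3.00% ± 0.770 of WT and 2.59% ± 0.620 of KO cells (SD, n = 3; two-sided exact permutation p = 0.6, where 0.1 is the smallest possible; edgeR on cell counts, adjusted p = 0.559, log2 difference -0.21 ± 0.29).

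The 3 other members fitted in the stromal-like class overlapped between genotypes. *Fstl1* stood at 374, 433 and 309 CPM in WT mice, and 247, 326 and 417 CPM in KO (log2 difference -0.15 ± 0.21), *Col1a2* differed by -0.25 ± 0.26 and *Col5a2* by -0.06 ± 0.37. In the 4 libraries without *Xist*, *Fstl1* and *Col1a2* differed by 0.16 and 0.15, the other way. *Fn1* had too few counts to be fitted, with 47 UMIs. It stood in stromal-like cells at 8.45, 5.93 and 12.8 CPM in WT mice, and 40.8, 30.3 and 18.3 CPM in KO, with every KO library above every WT library. In the *Myh11* group, which held 45 of the UMIs, it stood at 28.2, 28.7 and 42.7 CPM in WT mice, and 76.5, 74.5 and 80.9 CPM in KO, in the same order. These values rest on 4, 4 and 5 UMIs in WT mice, and 20, 8 and 4 in KO. In barcodes with 1 to 99 UMIs of KO replicate 3, *Fn1* stood at 25.8 CPM, above the 18.3 CPM of its stromal-like cells. The part of such RNA was not tested.

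**Figure D3:**
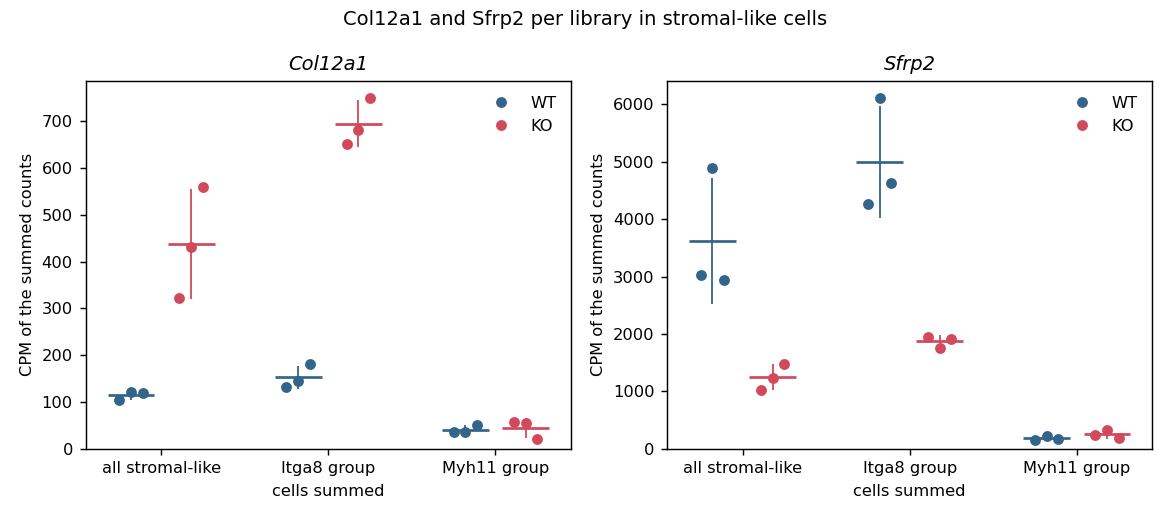
CPM of *Col12a1* (left) and *Sfrp2* (right) in each library, for all stromal-like cells and for the *Itga8* and *Myh11* groups within them; points are libraries, horizontal lines group means and vertical lines SD (n = 3). In the *Itga8* group the KO libraries sit at 651 to 749 CPM for *Col12a1*, above all WT libraries, and at 1761 to 1949 CPM for *Sfrp2*, below all WT libraries, while the *Myh11* group overlaps for both genes.

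*Fstl1*, a glycoprotein that binds BMP and activin-type ligands, was lower in KO connecting tubule-like (CNT) cells and higher in KO podocyte-like cells. In CNT cells it stood at 52.2, 62.6 and 35.0 CPM in WT mice, and at 9.18, 9.26 and 11.8 CPM in KO, from 683 UMIs. The KO values lay close together, well below the lowest WT value, and the log2 difference was -2.31 ± 0.22 (-2.00 ± 0.25 in the 4 libraries without *Xist*), in a class where 2.91% of genes passed. Both CNT clusters showed the same order, at 35.2 to 62.9 against 9.45 to 11.8 CPM in cluster 6 and 29.5 to 56.1 against 0 to 10.1 CPM in cluster 7. The 6 CNT markers summed to 47225 to 56204 CPM in WT mice, and 37642 to 45743 CPM in KO, and their part in the difference was not tested. With classes taken from marker scores in place of clusters the difference was -1.70 and did not pass.

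In podocyte-like cells *Fstl1* stood at 74.7, 58.8 and 64.7 CPM in WT mice, and 109, 113 and 81.0 CPM in KO, from 2098 UMIs. The groups did not overlap, though KO replicate 3 was near the highest WT value, and the log2 difference was 0.60 ± 0.13 where 1.95% of genes passed. The 2 larger podocyte-like clusters showed the same order, and the smallest, cluster 10, overlapped. The 7 podocyte markers summed to 21554 to 25514 CPM in WT mice, and 18052 to 20167 CPM in KO, and their part was not tested. The difference was 0.50 ± 0.16 and did not pass in the 4 libraries without *Xist*, nor without any one library other than KO replicate 3 (0.52 to 0.70).

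Elsewhere *Fstl1* was lower in every KO library in IC cells, at 8.92, 15.8 and 8.37 CPM in WT mice, and 1.66, 3.25 and 6.48 CPM in KO (log2 difference -1.59 ± 0.43, not past the threshold, -0.76 in the 4 libraries without *Xist*). It was higher in every KO library in cluster 18, at 155 to 195 against 197 to 305 CPM (0.45 ± 0.23, not past the threshold, where 0.0809% of genes passed). In endothelial-like (-0.16), LOH-like (0.36), macula densa-like (0.10) and principal cell-like (PC, -0.18) cells the groups overlapped, and in the last the difference was 0.11 in the 4 libraries without *Xist*. Of all genes, 0.207%, 4.51%, 1.03% and 2.51% passed in these 4 classes.

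*Col5a2* was lower in KO DCT cells. It stood at 53.9, 155 and 67.4 CPM in WT mice, and 23.9, 8.55 and 20.1 CPM in KO, from 1434 UMIs. The KO libraries were all below the lowest WT library and WT replicate 2 was well above the rest, with a log2 difference of -2.34 ± 0.39 (-2.06 ± 0.27 in the 4 libraries without *Xist*, -1.75 ± 0.25 without WT replicate 2), in a class where 0.954% of genes passed. Without KO replicate 2 it was -2.04 ± 0.42 and did not pass. DCT cells were 9.60% ± 0.326 of WT and 5.42% ± 0.249 of KO cells (SD, n = 3, two-sided exact permutation p = 0.1, edgeR on cell counts, adjusted p = 0.0323). The part of this share in the difference was not tested. LOH-like cells carried the gene at a higher level, and the 7 LOH markers summed to 3818 to 4819 CPM in WT mice, and 4257 to 7751 CPM in KO DCT cells, ranges that overlapped, and their part was not tested. In barcodes with 1 to 99 UMIs, taken as free RNA, WT replicate 2 was also the highest, at 144 CPM against 44.0 to 88.5 CPM. After thinning, 2.57% to 7.11% of WT and 0.452% to 2.20% of KO DCT cells held a UMI (17.99% to 35.0% and 4.52% to 9.63% unthinned, median depth 2517 UMIs). In CNT cells, whose median depth was 5720 UMIs, 0% to 0.820% did, a range that held KO replicate 2. Proximal tubule-like cells reached 2.98% in WT replicate 2, above every KO value of DCT cells. The part of free RNA in these shares was not tested. In endothelial-like cells *Col5a2* stood at 45.2, 37.4 and 29.1 CPM in WT mice, and 27.4, 16.5 and 23.7 CPM in KO, without overlap and not past the threshold (-0.69 ± 0.24).

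*Col14a1* was higher in KO macrophage-like cells. It stood at 85.7, 58.1 and 62.2 CPM in WT mice, and at 286, 181 and 193 CPM in KO, from 465 UMIs. Every KO library was more than 2 times the highest WT library, and the log2 difference was 1.83 ± 0.25, where 0.725% of genes passed. After thinning, 3.42% to 4.11% of WT and 6.96% to 15.4% of KO cells held a UMI (14.4% to 16.2% and 34.8% to 47.3% unthinned), against 0% of podocyte-like cells. The 5 monocyte markers of the same cells summed to 853 to 1797 CPM in WT mice, and 214 to 575 CPM in KO, while the 6 macrophage markers summed to 4178 to 5609 and 3871 to 5059 CPM, and the part of this shift in the difference was not tested. The difference was 1.57 with classes taken from marker scores and did not pass. It was 1.52 ± 0.31 and again did not pass in the 4 libraries without *Xist*, nor without KO replicate 3 (1.89 ± 0.29).

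In IC cells *Col14a1* was also higher in KO, at a lower level. *Col14a1* stood there at 5.10, 1.89 and 3.02 CPM in WT mice, and 9.34, 15.2 and 10.6 CPM in KO, from 205 UMIs. The groups did not overlap and the log2 difference was 1.81 ± 0.34, where 0.572% of genes passed. Clusters 21 and 22 both showed this order, and cluster 8 overlapped. After thinning, 0% of WT and 0.484% to 1.35% of KO IC cells held a UMI (1.31% to 3.66% and 7.68% to 12.1% unthinned). The 6 CNT markers summed to 10805 to 13437 CPM in WT mice, and 4048 to 11300 CPM in KO IC cells, and their part was not tested. The call was lost when WT replicate 2 (1.52) or 3 (1.77) was left out, or KO replicate 2 (1.59) or 3 (1.84), in the 4 libraries without *Xist* (1.71), with a block for replicate number (1.82) or at a mitochondrial limit of 30% (1.03).

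*Fn1* in macrophage-like cells varied widely between mice of the same genotype. It stood at 120, 1.42 and 54.4 CPM in WT mice, and 23.4, 0 and 0 CPM in KO, and the log2 difference of -2.39 ± 1.06 did not pass. With a replicate block it was -2.57 ± 0.53 and passed, and with no filter on low counts it was -2.35 ± 0.44 and passed. In WT replicate 1, 13 of 316 cells held the 102 UMIs, and in WT replicate 3 and KO replicate 1, 3 cells each. The counts of 0 allow up to 5.54 and 12.6 CPM in KO replicates 2 and 3. In endothelial-like cells *Fn1* stood at 42.4, 30.9 and 23.3 CPM in WT mice, and 19.4, 18.4 and 21.8 CPM in KO, without overlap and not past the threshold (-0.69 ± 0.24), and in cluster 12, which held 106 of the 216 UMIs, the groups overlapped. *Col12a1* in endothelial-like cells differed by -1.52 ± 0.79 and rested on WT replicate 1, where 11 of 607 cells held 30 UMIs.

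**Figure D4:**
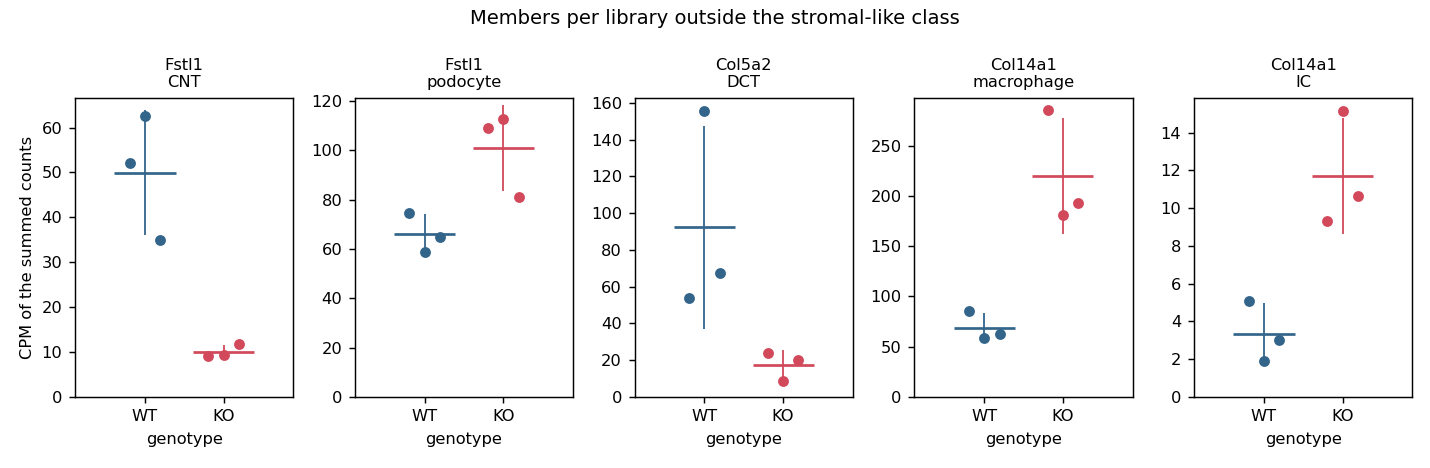
CPM per library of the 5 other member and class pairs past the threshold, each panel on its own axis from 0; points are libraries, horizontal lines group means and vertical lines SD (n = 3). KO libraries lie below WT libraries for *Fstl1* in CNT cells and *Col5a2* in DCT cells, and above them for *Fstl1* in podocyte-like cells and *Col14a1* in macrophage-like and IC cells.

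Outside retained cells 1 library stood apart for *Col1a1*, *Col3a1* and *Fn1*. In barcodes with 1 to 99 UMIs, *Col1a1* stood at 68.5 CPM in KO replicate 3 against 1.23 to 5.95 CPM in the other 5 libraries, and 353 of its 428 UMIs in all barcodes of that library were there. *Col3a1* stood at 33.2 against 0.167 to 2.41 CPM and *Fn1* at 25.8 against 1.00 to 2.92 CPM. Among retained cells KO replicate 3 did not stand above the others, with *Col1a1* at 0.602 CPM. The other KO libraries were within the WT range or below it for *Col1a1*, and whether the mouse or its library differs cannot be told apart. *Sfrp2* in these barcodes was highest in WT replicate 2, at 57.3 CPM against 6.29 to 17.01 CPM. *Col1a2* varied little there, between 30.3 and 50.2 CPM.

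**Figure D5:**
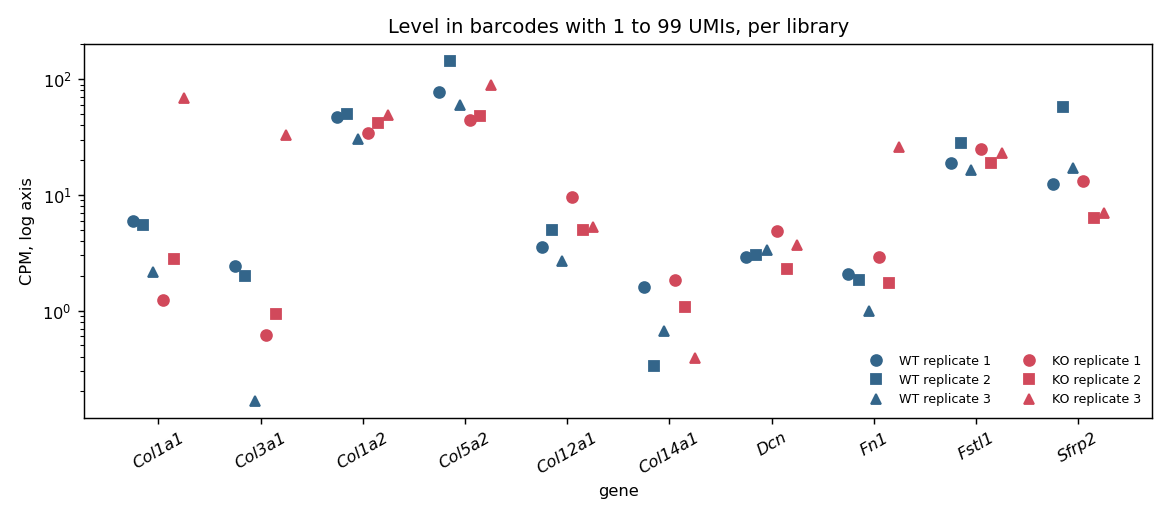
CPM (log axis) of each member in barcodes with 1 to 99 UMIs, 1 point per library, WT in blue and KO in red, with the shape giving the replicate. KO replicate 3 (red triangle) lies far above the other 5 libraries for *Col1a1* at 68.5 CPM, *Col3a1* at 33.2 CPM and *Fn1* at 25.8 CPM.

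A wider list of 87 matrix genes, none of them members, was read in the same fits. In the 12 classes 363 pairs of these genes were fitted and 9 passed, 7 higher and 2 lower in KO, or 2.48% against the 1.57% of all pairs. The list covered other interstitial collagens (0 of 12 pairs past the threshold), collagen synthesis and processing (0 of 127), matrix receptors (0 of 57), proteoglycans (1 of 7), elastic fibre and matrix glycoproteins (2 of 69), matrix turnover (5 of 70) and secreted Wnt and activin modulators (1 of 21). With edgeR, the first 3 lists had 3, 16 and 9 pairs at an unadjusted p under 0.05. By DESeq2, 18 pairs of the whole list passed. The median log2 difference over the 363 pairs was 0.01.

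The pair with the lowest p was *Sfrp1*, a relative of *Sfrp2*, which fell in LOH-like cells from 1382, 1543 and 1451 CPM in WT mice to 499.5, 622 and 522 CPM in KO (log2 difference -1.42 ± 0.10, edgeR adjusted p = 1.12e-05). It passed under all 16 alternatives. Other pairs were *Timp* genes, which code for inhibitors of matrix proteases. *Timp2* rose in CNT cells (12.2 ± 3.12 to 25.5 ± 5.99 CPM, SD, 1.09 ± 0.21, edgeR adjusted p = 0.00942) and in PC cells (122 ± 24.8 to 228 ± 4.39 CPM, 0.93 ± 0.15, edgeR adjusted p = 0.00591). *Timp3* rose in CNT cells (616 ± 16.9 to 877 ± 71.9 CPM, 0.53 ± 0.13, edgeR adjusted p = 0.0416) and fell in podocyte-like cells (4259 ± 32.3 to 3173 ± 102 CPM, -0.44 ± 0.10, edgeR adjusted p = 0.04999).

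The remaining 4 pairs rose. In podocyte-like cells *Bgn*, the proteoglycan biglycan, rose from 4.05 ± 0.548 to 8.62 ± 0.183 CPM (edgeR adjusted p = 0.0458) and *Emilin1*, an elastic fibre protein, from 17.7 ± 2.26 to 32.9 ± 6.46 CPM (edgeR adjusted p = 0.0250). *Ccn2*, a matricellular protein known as a target of TGF-β, rose in PC cells from 48.2 ± 7.12 to 127 ± 75.7 CPM (edgeR adjusted p = 0.0292), and *Adamts1*, a matrix protease, in LOH-like cells from 29.2 ± 5.61 to 45.3 ± 5.86 CPM (edgeR adjusted p = 0.0279). *Sfrp1* in LOH-like cells and *Timp2* in PC cells passed with each library left out in turn, while *Timp3* in CNT cells, *Timp3* in podocyte-like cells and *Bgn* stopped passing whichever library was left out (edgeR adjusted p of 0.0591 to 0.156, 0.0532 to 0.156 and 0.0811 to 0.137). In the 4 libraries without *Xist*, *Sfrp1* alone of the 9 pairs passed, and *Timp2* in PC cells had an edgeR adjusted p of 0.0748, with 0.0647 to 0.326 over the 8 that did not pass. *Timp2* in CNT cells did not pass without KO replicate 1 (edgeR adjusted p = 0.0860). *Adamts1* did not pass without WT replicate 1 or 3 (0.0859 and 0.0567) or KO replicate 1 or 3 (0.111 and 0.0973). *Ccn2* did not pass without any 1 WT library (0.0827, 0.0660 and 0.0809) or KO replicate 1 (0.0588), the library where it was highest, and *Emilin1* without any 1 WT library (0.0501, 0.110 and 0.0717) or KO replicate 2 (0.0671).

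Other settings also ended some of these calls. At a mitochondrial limit of 30%, *Adamts1* differed by 0.06 (edgeR adjusted p = 0.984), and *Ccn2*, *Timp2* in CNT cells (0.0511) and *Timp3* in CNT cells (0.147) did not pass. With classes from marker scores, *Bgn* differed by 0.37 (edgeR adjusted p = 0.651) and *Ccn2* by 0.70 (0.165), and *Timp2* in CNT cells (0.0553) and *Timp3* in podocyte-like cells (0.0508) did not pass. With no mitochondrial limit *Adamts1* (0.113) and *Timp3* in CNT (0.0919) and podocyte-like cells (0.0549) did not pass, and with a replicate block *Adamts1* (0.0566) and *Timp3* in CNT cells (0.0731) did not. *Bgn* did not pass by DESeq2 (adjusted p = 0.106), *Bgn* (0.0604) and *Timp3* in podocyte-like cells (0.0624) not with an edgeR block for the libraries with *Xist*, and the latter (0.0504) not with the members kept in clustering.

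In stromal-like cells 45 genes of the list were fitted and 0 passed with edgeR, 7 had an unadjusted p under 0.05 and DESeq2 called 1. Their median log2 difference was -0.08, against 0.0012 over all genes of the class. The 3 higher in KO with the lowest p were *Plat*, the tissue plasminogen activator (153 ± 5.21 CPM in WT mice, and 322 ± 81.6 CPM in KO, edgeR adjusted p = 0.0674), *Timp3* (adjusted p = 0.266) and *Ccn1* (0.568). The 3 lower were *Mmp2*, a gelatinase (179 ± 69.1 CPM in WT mice, and 96.9 ± 22.3 CPM in KO, edgeR adjusted p = 0.398), *Thbs1* (0.494) and *Bgn* (0.568).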

How the data were processed

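Single-cell libraries were prepared with the BD Rhapsody whole transcriptome kit, 1 per mouse. The deposited matrices hold UMI counts per gene and barcode that the authors made with the BD Rhapsody pipeline on mm10 and did not normalise, and the submitters' processing notes name Scanpy 1.8. Barcodes with 500 to 60000 UMIs, 200 to 8000 genes and at most 50% mitochondrial UMIs were kept. Scrublet's automatic limit marked 0.0899% to 0.372% of them, too few to have worked, so the top 6% of doublet scores were removed in each library. Cells were clustered with the members left out (scanpy 1.11.5, 2000 variable genes, 30 principal components, 15 neighbours, Leiden resolution 1, 0.5 within stromal-like cells), and clusters were named from marker lists, so these classes are rebuilt and may differ from those of the study.

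Counts summed per library and class were tested with edgeR 4.0.16 (quasi-likelihood test, filterByExpr with a minimum count of 10, TMM, Benjamini-Hochberg adjustment over all genes of a class, threshold 0.05, R 4.3.3), which was tested on simulated data. The simulated counts had the same relative spread for all genes and no outlying library, so they do not show how the fit handles such a library. Errors of log2 differences are SE and those of CPM are SD. Summed counts of retained cells were 22965576 to 35466580 per library. The number of UMIs behind a level sets its counting error only, and the spread between mice comes on top of it. The members, marker lists and matrix lists were chosen with earlier results of these data known. All members were described, and of the other matrix genes those past the threshold in a class and, in stromal-like cells, the 3 with the lowest p in each direction were named, with the 2 genes most like each member in pattern. Alternatives were RLE size factors, no filter, DESeq2 1.42.0, other mitochondrial limits, a replicate block, clustering with the members, classes from marker scores, a block for or removal of the 2 libraries with *Xist*, and leaving out each library. Same-numbered WT and KO libraries did not deviate together (correlations of -0.225 to 0.288), so the numbers were not treated as pairs. Mice were separate animals, 3 per group.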

Additional observations from a re-analysis of the deposited data

Results flagged for a closer look

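*Fstl1* moved in opposite directions in different cell classes. Every KO library lay above every WT library in podocyte-like cells (log2 difference 0.60) and in cluster 18 (0.45), and below every WT library in CNT cells (-2.31) and IC cells (-1.59). The values in cluster 18 and IC cells did not pass the threshold, and the one in podocyte-like cells did not pass in the 4 libraries without *Xist*. The difference between these classes was not tested, and the members were chosen with these values known.

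RNA in barcodes of 1 to 99 UMIs, which are not retained cells, held far more of 3 members in KO replicate 3 than in any WT library: *Col1a1* at 68.5 CPM, *Col3a1* at 33.2 CPM and *Fn1* at 25.8 CPM, each over 5 times the highest WT value. KO replicates 1 and 2 did not show this.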

How the results depend on the processing

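Of the 25 member and class pairs, 7 passed the threshold. With no filter on low counts 100 pairs were fitted and 18 passed, 11 of them among the 25. Of the fitted pairs, 3 passed in the 4 libraries without *Xist*, and 3 to 6 with 1 library left out. All 7 kept their direction under each of 16 alternatives, and only *Col12a1* in stromal-like cells also passed under all of them. With a replicate block 7 pairs passed, *Fn1* in macrophage-like cells in place of *Col14a1* in IC cells. In stromal-like cells 4 genes passed, against 113 with no filter, 10 by DESeq2, 8 with a replicate block, 1 with classes from marker scores, 26 with a block for the libraries with *Xist*, 10 in the 4 libraries without it, and 2 to 26 with 1 library left out. Of the wider matrix list 9 pairs passed, against 56 with no filter, 18 by DESeq2, 4 in the libraries without *Xist* and 3 to 8 with 1 library left out. The stromal-like share differed by -0.21 on the log2 scale, -0.40 to 0.0014 with 1 library left out, and turned in sign without WT replicate 2 (0.0014). The cause of these changes was not tested. Removal of the top 6% of doublet scores had been planned as an alternative and became the setting in use, so it gave no separate value. The *Itga8* group alone was added after seeing the data. With 3 mice per group, a library left out leaves 2 in its group. Low UMI numbers, as for *Col1a1*, *Col3a1* and *Fn1* in the *Myh11* group, limit what could be seen.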
